A study of Mus musculus with 2 samples.

Results

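The let-7 genes described here are 9 mouse let-7 genes that lie outside the clusters shared with miR-99/100 and miR-125. Mir7j and Mir7k, the genes of let-7j and let-7k, also lie outside them and are not among the 9. The members are given by a list of symbols grouped by locus, and were found as the rows of both count tables whose gene identifiers carry these symbols in the GENCODE M21 annotation. They make up 9 of 2202 annotated microRNA (miRNA) genes, and all 9 had reads in both libraries. They fall into 5 loci. Mirlet7a-1, Mirlet7f-1 and Mirlet7d form a cluster on chromosome 13, Mirlet7c-2 and Mirlet7b a pair on chromosome 15, and Mirlet7f-2 and Mir98 a pair on the X chromosome. Mirlet7g on chromosome 9 and Mirlet7i on chromosome 10 stand alone.

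Small RNA under 30 nt was sequenced from the left cerebral cortex of 4-day-old B6CASTF1/J males, the F1 hybrid of C57BL/6J with CAST/EiJ. The study has 1 group, for which the labels give no treatment, with 2 libraries that are numbered as biological replicates 1 and 2. Each label names a male with its own number, yet both give the same donor identifier, so the labels do not settle whether the spread between libraries is one between animals. The marker miRNAs described below differ widely between the libraries, so each SD over the 2 libraries also holds whatever sets them apart. Below, the replicate 1 and replicate 2 libraries are those that carry these labels, and paired values are given in that order. The tables hold read counts per hairpin gene on the gene's own strand, and a share is the percentage of all such counts in a library.

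The let-7 miRNAs are among the most conserved animal miRNAs. Each hairpin is cut by Drosha and Dicer, and the strand from its 5′ side is loaded into Argonaute, where bases 2 to 8, the seed, pair with target messenger RNAs such as Hmga2, Lin28a and the Ras genes. Their levels rise as cells leave the stem or progenitor state, and in the developing cortex they are known for favouring neuronal differentiation over progenitor renewal. LIN28 proteins hold back the maturation of many let-7 precursors by binding the terminal loop and a GGAG motif beside it.

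The mature sequences from the 5′ arm are shown because they explain which members can be told apart by a short read. They come from RefSeq (GRCm38.p6), where all 9 members were matched. The seed is in capitals.

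let-7a-5p (Mirlet7a-1): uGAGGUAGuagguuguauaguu
let-7f-5p (Mirlet7f-1 and Mirlet7f-2): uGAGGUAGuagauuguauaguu
let-7d-5p (Mirlet7d): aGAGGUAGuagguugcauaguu
let-7c-5p (Mirlet7c-2): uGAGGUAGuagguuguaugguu
let-7b-5p (Mirlet7b): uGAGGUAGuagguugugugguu
miR-98-5p (Mir98): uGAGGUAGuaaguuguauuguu
let-7g-5p (Mirlet7g): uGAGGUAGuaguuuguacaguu
let-7i-5p (Mirlet7i): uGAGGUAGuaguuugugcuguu

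All 9 members carry the seed GAGGUAG, and the RefSeq miRNA table lists mature sequences with it under 13 genes. Mirlet7a-2 is not among these, although its hairpin also holds let-7a-5p. Differences from let-7a-5p are counted from 1 at the 5′ end, with the let-7a base first. They are G12A in let-7f-5p, A19G in let-7c-5p, A17G and A19G in let-7b-5p, U1A and U16C in let-7d-5p, G11A and A19U in miR-98-5p, and G12U and U18C in let-7g-5p. The let-7i-5p sequence differs most, at 4 bases (G12U, A17G, U18C and A19U).

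A read that matches several genomic sites is given to no gene in tables of this layout, and such reads numbered 1.54 and 0.757 for each read given to a gene in the replicate 1 and replicate 2 libraries. Among the 1005 hairpins of the RefSeq table, both mature sequences of Mirlet7b, Mirlet7d, Mir98, Mirlet7g and Mirlet7i occur in a single hairpin. The other 4 members share a mature sequence with another gene. The let-7a-5p sequence is also in Mirlet7a-2, let-7c-5p is also in Mirlet7c-1, and let-7f-5p is in Mirlet7f-1 and Mirlet7f-2. The 3′ arm of Mirlet7c-2 is moreover identical to that of Mirlet7a-1. The 2 let-7f hairpins show how little separates such copies, with the stretch they share in capitals.

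Mirlet7f-1 hairpin: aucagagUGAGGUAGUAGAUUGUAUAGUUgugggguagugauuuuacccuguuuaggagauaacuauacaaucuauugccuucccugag
Mirlet7f-2 hairpin: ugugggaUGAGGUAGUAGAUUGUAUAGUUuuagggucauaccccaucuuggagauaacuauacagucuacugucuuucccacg

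The shared stretch of 22 bases is exactly the mature 5′ arm, so a full-length let-7f-5p read without further genomic bases names neither gene. The 5 members with unique mature sequences held 98.1% of the counts of the 9 genes in the replicate 1 library and 98.6% in the other. The counts of Mirlet7a-1, Mirlet7f-1, Mirlet7c-2 and Mirlet7f-2 are therefore uncertain as levels and can be too low by an amount the tables do not give.

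Depth was 2999032 and 3577964 own-strand counts in the replicate 1 and replicate 2 libraries. Intervals are exact Clopper-Pearson 95% intervals and cover counting error only, because amplified reads are not independent molecules. The marker miRNAs of the replicate 2 library go against its label. The 13 neuronal marker miRNAs held 4.27% of counts in the replicate 1 library and 0.131% in the replicate 2 library. Mir137 had 40242 and 99 counts, Mir132 11179 and 391, and Mir128-1 53592 and 2623, so these neuronal markers of the labelled tissue were low in the replicate 2 library. The 3 Mir124a copies and Mir9-2 were at 0 there, but with 8, 3, 1 and 7 counts they were near the floor in the replicate 1 library too. None of the 13 was at 0 in the latter. Reads that fit several gene copies are given to no gene, so counts of miRNAs with several gene copies can be too low. The counts of the Mir124a and Mir9 copies are therefore no measure of miR-124 or miR-9 as a whole. The 9 muscle miRNAs held 0.00730% (6 at 0) and 15.7% (1 at 0), nearly all of it Mir206, without which the other 8 held 0.000233% and 0.0818%. The limit on gene copies also holds for Mir1a-1 and Mir1a-2 and for Mir133a-1 and Mir133a-2, so the part of Mir206 can be overstated. The miRNAs of the Hox clusters, 5 genes, held 0.0228% (1 at 0) and 1.91% (0 at 0). Their part in the let-7 differences was not tested, and in bulk tissue fewer cells of a type and less RNA per cell cannot be told apart. Every direction below is between libraries as labelled.

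The 9 genes held 33.0% of counts (interval 32.9 to 33.0) in the replicate 1 library and 14.8% (14.7 to 14.8) in the replicate 2 library, a mean of 23.9% ± 12.9 (SD, n = 2). Mirlet7i, Mirlet7g and Mirlet7b made up most of it, with 91.4% and 83.3% of the counts of the 9 genes. By share the summed let-7 counts were 2.23-fold lower (interval 2.23 to 2.24) in the replicate 2 library (log2 -1.16), but scaled by TMM, which assumes that most genes do not differ, they were higher (log2 0.24). TMM lies 1.40 above total counts on the log2 scale and DESeq2 size factors 1.55 above. The between-library ratio of a single member therefore depends on the scaling, while the make-up of the let-7 counts within a library does not.

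**Figure D1:**
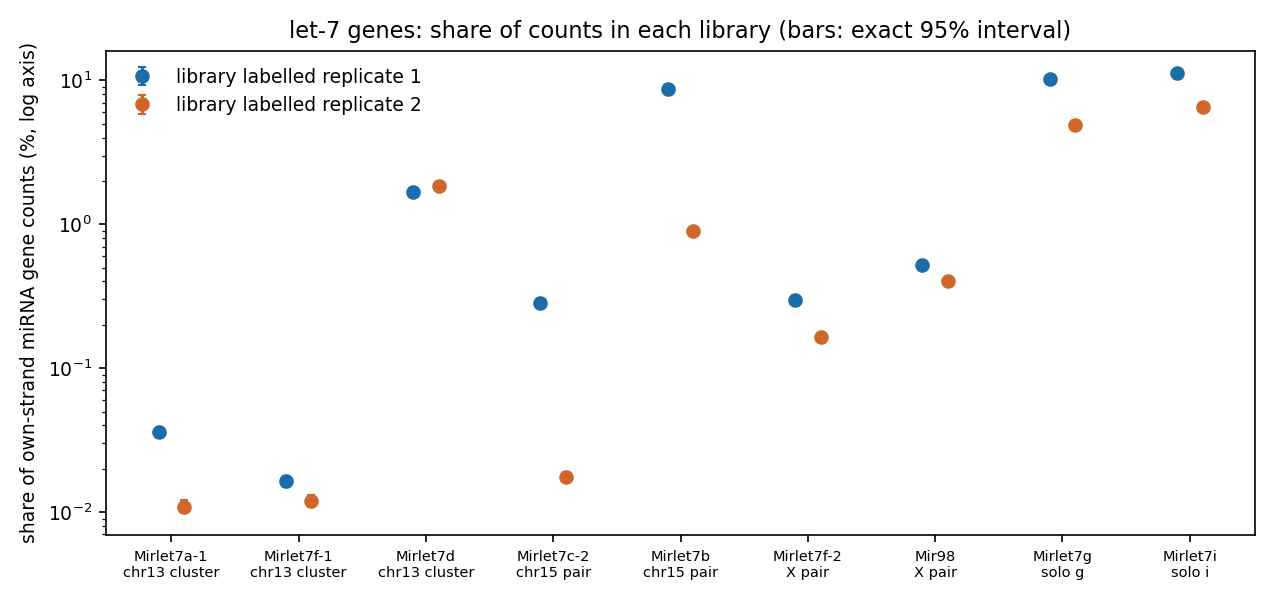
Share of own-strand miRNA gene counts (percent, log axis) of each of the 9 let-7 genes in both libraries, with exact 95% intervals that are mostly smaller than the points. Mirlet7d is the member with a higher share in the replicate 2 library (1.68% and 1.86%), and Mirlet7b and Mirlet7c-2 show the widest gaps.

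The members ranked from 1 to 174 among all miRNA genes. In order of mean share (SD, n = 2), Mirlet7i stood at 8.89% ± 3.31, Mirlet7g at 7.55% ± 3.81, Mirlet7b at 4.77% ± 5.48 and Mirlet7d at 1.77% ± 0.123. Mir98 followed at 0.460% ± 0.0829, Mirlet7f-2 at 0.232% ± 0.0961, Mirlet7c-2 at 0.151% ± 0.189, Mirlet7a-1 at 0.0234% ± 0.0176 and Mirlet7f-1 at 0.0141% ± 0.00313. A read spans a mature miRNA whatever the hairpin's length (83 to 108 bases), so these shares were not divided by length. The ranges of the 2 libraries overlapped between the neighbours Mirlet7i and Mirlet7g, Mirlet7g and Mirlet7b, Mirlet7b and Mirlet7d, Mirlet7f-2 and Mirlet7c-2, Mirlet7c-2 and Mirlet7a-1, and Mirlet7a-1 and Mirlet7f-1. They did not overlap between Mirlet7d and Mir98 or between Mir98 and Mirlet7f-2. Within each library Mirlet7i was first and Mirlet7g second of the 9 by counts given to a gene, and the order changed in 2 places. Mirlet7b was ahead of Mirlet7d in the replicate 1 library and behind it in the other, and Mirlet7a-1 and Mirlet7f-1 likewise exchanged the last 2 places.

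Mirlet7i (ENSMUSG00000065406.3; mm10 chromosome 10, 122985640 to 122985724, minus strand, in an exon of the transcribed pseudogene D630033A02Rik) had 336931 and 234367 counts. These were 11.2% and 6.55% of the library and ranked 1 and 2 of all miRNA genes. Within the let-7 counts it took 34.1% and 44.4%, the largest part in both libraries among counts given to a gene. Reads that fit several genes are not in these counts, so its place against the members with shared mature sequences is not settled. Its share of all counts was 1.72-fold lower in the replicate 2 library (interval 1.71 to 1.72), and with TMM it was higher (log2 0.63).

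Mirlet7g (ENSMUSG00000065440.1; chromosome 9, 106178840 to 106178927, plus strand, in an intron of Wdr82, which encodes a subunit of a histone methyltransferase complex) had 307351 and 173681 counts. These were 10.2% and 4.85% of the library, at ranks 2 and 6. Its part of the let-7 counts was close in both libraries, at 31.1% and 32.9%. By share it was 2.11-fold lower in the replicate 2 library (interval 2.10 to 2.12), with TMM higher (log2 0.33). The ratio of Mirlet7i to Mirlet7g was 1.10 and 1.35 in replicates 1 and 2. It thus changed by 1.23-fold (interval 1.22 to 1.24). Their mature sequences differ at 2 bases, A17G and A19U with the let-7g base first.

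The chromosome 15 pair differed most between the libraries. Mirlet7b (ENSMUSG00000065564.1; 85707319 to 85707403, plus strand, in an exon of the lncRNA Lncppara) had 259290 and 32213 counts. These were 8.65% and 0.900% of the library, at ranks 3 and 22. Its part of the let-7 counts went from 26.2% (interval 26.1 to 26.3) in the replicate 1 library to 6.10% (6.03 to 6.16) in the other. By share it was 9.60-fold lower in the replicate 2 library (interval 9.49 to 9.72), and it was lower with TMM too (log2 -1.86).

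Mirlet7c-2 (ENSMUSG00000065608.1; 85706603 to 85706697, plus strand, also in an exon of Lncppara) had 8537 and 627 counts. These were 0.285% and 0.0175% of the library, at ranks 62 and 153. It was 16.2-fold lower by share (interval 15.0 to 17.6) and lower with TMM (log2 -2.62). The mature let-7c-5p and let-7b-5p sequences differ at a single base, A17G with the let-7c base first. Both hairpins of the pair are shown, with the mature arms in capitals.

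Mirlet7b hairpin: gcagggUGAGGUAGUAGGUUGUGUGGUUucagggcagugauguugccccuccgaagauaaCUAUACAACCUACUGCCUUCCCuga
Mirlet7c-2 hairpin: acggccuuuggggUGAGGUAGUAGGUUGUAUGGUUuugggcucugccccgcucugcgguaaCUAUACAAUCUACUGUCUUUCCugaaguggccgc

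The pair together held 27.1% of the let-7 counts in the replicate 1 library and 6.22% in the replicate 2 library. Without Mirlet7b, the other 8 members summed to 24.3% and 13.9% of all counts, a 1.75-fold lower share in the replicate 2 library (interval 1.75 to 1.76) in place of the 2.23-fold of all 9 (log2 0.59 with TMM).

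**Figure D2:**
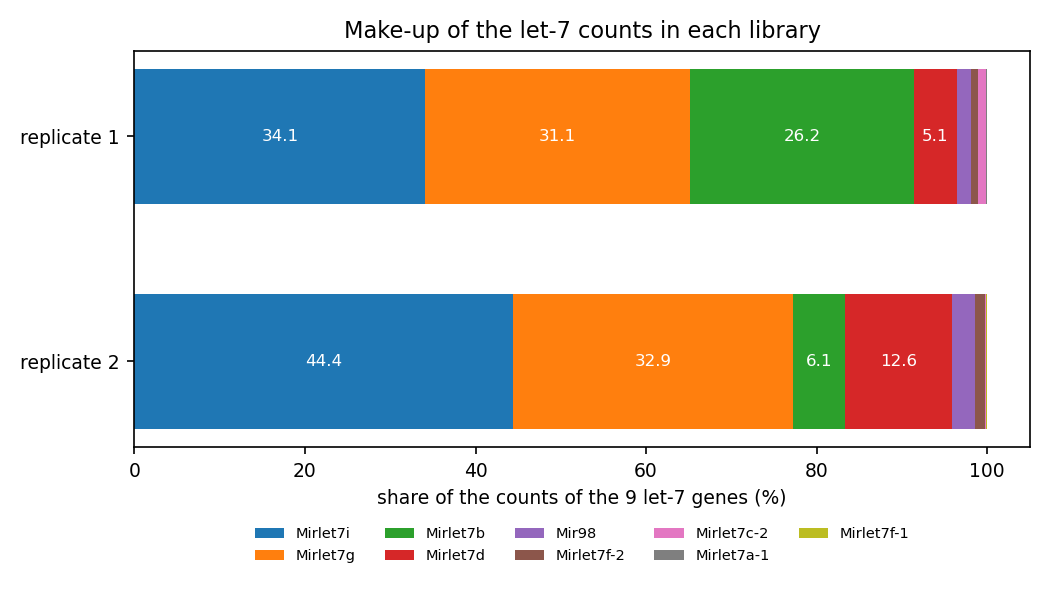
Percentage of the summed counts of the 9 let-7 genes that each gene took in the replicate 1 library (top) and replicate 2 (bottom), on an axis from 0 to 100. Mirlet7b takes 26.2% and 6.10%, Mirlet7d 5.10% and 12.6%, and Mirlet7i 34.1% and 44.4%.

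Every locus but the chromosome 15 pair took a larger part of the let-7 counts in the replicate 2 library. The chromosome 13 cluster held 5.26% of the let-7 counts in the replicate 1 library and 12.7% in the other, nearly all of it Mirlet7d. Within it Mirlet7a-1 took a smaller part in the replicate 2 library (0.109% and 0.0740%) and Mirlet7f-1 a larger one (0.0496% and 0.0808%). Mirlet7d (ENSMUSG00000065453.1; 48536012 to 48536114, minus strand, in an exon of the lncRNA 6720427I07Rik) had 50430 and 66382 counts, or 1.68% and 1.86% of the library. It ranked 12 and 16 of all miRNA genes. Mirlet7d was the member with a higher share in the replicate 2 library, at 1.10-fold (interval 1.09 to 1.12), and it was higher with TMM as well (log2 1.55).

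Mirlet7a-1 (ENSMUSG00000065421.3; 48538179 to 48538272) had 1076 and 391 counts. Its share was 3.28-fold lower in the replicate 2 library (interval 2.92 to 3.70), and it was lower with TMM (log2 -0.31). Mirlet7f-1 (ENSMUSG00000105621.1; 48537829 to 48537917) had 490 and 427 counts, a 1.37-fold lower share (interval 1.20 to 1.56) that was higher with TMM (log2 0.95). Both lie in an exon of 6720427I07Rik on the same strand. Both share their 5′ arm with another let-7 gene, so their counts are no measure of let-7a or let-7f as a whole. Mirlet7f-1 also overlaps the annotated miRNA gene Gm24111 on the opposite strand, and in counts made without strand it stood at 0 in both libraries.

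The X chromosome pair lies in an intron of Huwe1, a ubiquitin ligase gene, on the plus strand, and held 2.48% and 3.83% of the let-7 counts. Mir98 (ENSMUSG00000065536.2; 151913214 to 151913321) had 15558 and 14367 counts, or 0.519% and 0.402% of the library. Its share was 1.29-fold lower in the replicate 2 library (interval 1.26 to 1.32), and with TMM it was higher (log2 1.03). Mirlet7f-2 (ENSMUSG00000065602.1; 151912346 to 151912428) had 8986 and 5859 counts, a 1.83-fold lower share (interval 1.77 to 1.89), with TMM higher (log2 0.53). It had more counts than Mirlet7f-1 in both libraries, 8986 against 490 and 5859 against 427. The let-7f-5p reads that fit both genes were counted for neither, so these counts do not rank the 2 genes as sources of let-7f.

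**Figure D3:**
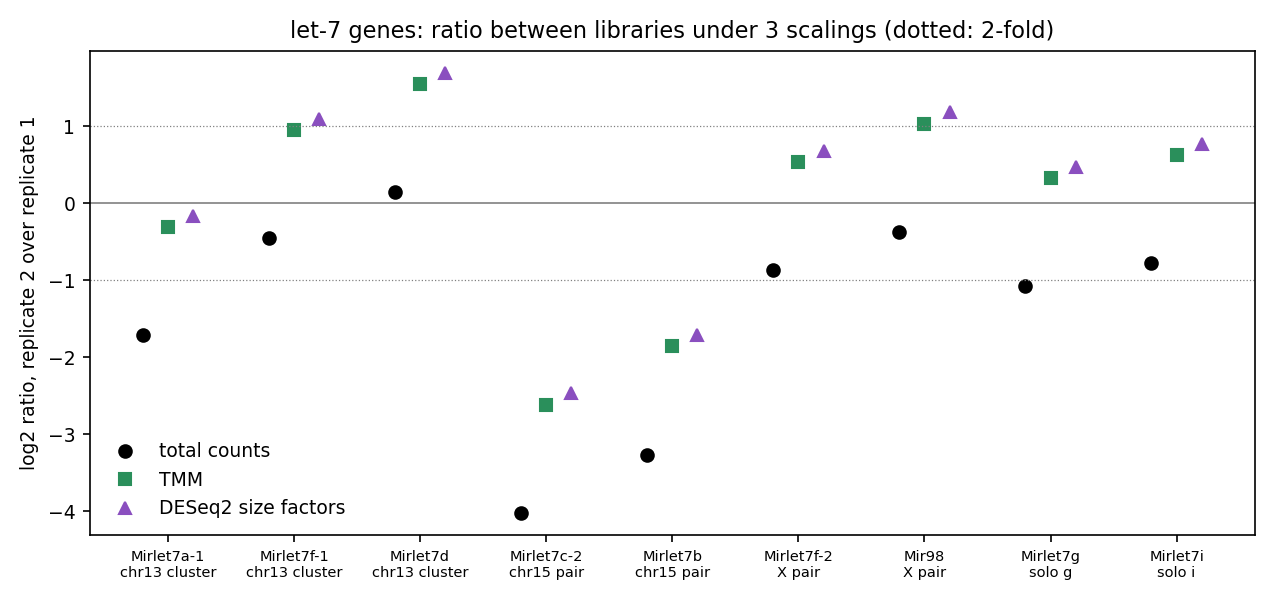
Log2 ratio between the libraries (replicate 2 over replicate 1) of each let-7 gene with total counts, TMM and DESeq2 size factors; dotted lines mark 2-fold. Mirlet7b, Mirlet7c-2 and Mirlet7a-1 are below 0 and Mirlet7d above 0 under all 3 scalings, while the other 5 members change side.

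With 1 library on each side no test of conditions is possible, and a gene was called when its share differed at least 2-fold. Of the 9 members, 4 (Mirlet7a-1, Mirlet7c-2, Mirlet7b and Mirlet7g) were called lower in the replicate 2 library, where 57.9% of the 463 genes with at least 10 counts summed were called lower. Mirlet7g lies near the limit, and its call ended with unstranded counts (log2 -0.98) and without Mir206 in the total (log2 -0.83), which left 3 members called. Of the 9, 0 were called higher, where 21.6% of all tested genes were. Without a fold limit 8 of 9 had a lower share, beside 70.6% of all tested genes. The median log2 ratio was -0.87 over the members and -1.67 over all tested genes. The share of members called 2-fold lower was thus under the background and the share with any lower value above it, and 9 genes are too few to read either as particular to let-7. With TMM 2 members were called lower and 2 higher, where 37.6% and 34.6% of all tested genes were. A lower value without a fold limit was then found for 3 of 9 members and 52.9% of all tested genes, and the medians were 0.53 and -0.27.

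Between these libraries the members also differed among themselves. Their log2 ratios ran from -4.02 for Mirlet7c-2 to 0.14 for Mirlet7d by total counts, a span that no scaling changes. Of all tested genes, 20.7% had a lower ratio than Mirlet7c-2 and 27.9% a lower ratio than Mirlet7b. At the other end, 72.8% lay below Mirlet7d, and Mir98, Mirlet7f-1, Mirlet7i, Mirlet7f-2, Mirlet7g and Mirlet7a-1 lay between 49.0% and 66.1%.

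Genes of a single locus are thought to be cut from shared transcripts, and a ratio of 2 neighbours within a library does not depend on the scaling. The ratio of Mirlet7b to Mirlet7c-2 was 30.4 in the replicate 1 library and 51.4 in the other, a 1.69-fold change (interval 1.56 to 1.84). The ratio of Mir98 to Mirlet7f-2 was 1.73 and 2.45, a 1.42-fold change (1.36 to 1.47). On chromosome 13, Mirlet7d to Mirlet7f-1 was 102.9 and 155.5, a 1.51-fold change (1.32 to 1.72), and Mirlet7f-1 to Mirlet7a-1 was 0.455 and 1.09, a 2.40-fold change (2.01 to 2.86). Mirlet7d and Mirlet7a-1, the ends of that cluster, changed most against each other, with a ratio of 46.9 and 169.8 and a 3.62-fold change (3.22 to 4.08). These changes exceed counting error. Each ratio here but that of Mirlet7i to Mirlet7g has a member with shared mature sequences in it.

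Other neighbouring miRNA genes give the background. They form 94 pairs of genes on a single strand within 10 kb, each gene with at least 100 counts summed over both libraries. Some of these genes were near 0 in 1 library (Mir199a-2 with 0 and 155 counts, Mir133b with 1 and 375), as no let-7 member was. Among the 94 pairs the median absolute log2 change of the ratio was 1.29 (middle 50% from 0.74 to 2.34), and 66.0% changed at least 2-fold. The chromosome 15 pair changed by 0.76 on this scale, the X pair by 0.50, Mirlet7d with Mirlet7f-1 by 0.59 and Mirlet7f-1 with Mirlet7a-1 by 1.26. So 1 of the 4 neighbouring let-7 pairs changed at least 2-fold, and all 4 lay below the median of these other pairs. Outside chromosome 12, which holds the large Dlk1-Dio3 cluster, the median was 1.18 over 49 pairs, and 61.2% changed at least 2-fold. Against that median 3 of the 4 let-7 pairs lay below and Mirlet7f-1 with Mirlet7a-1 above.

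**Figure D4:**
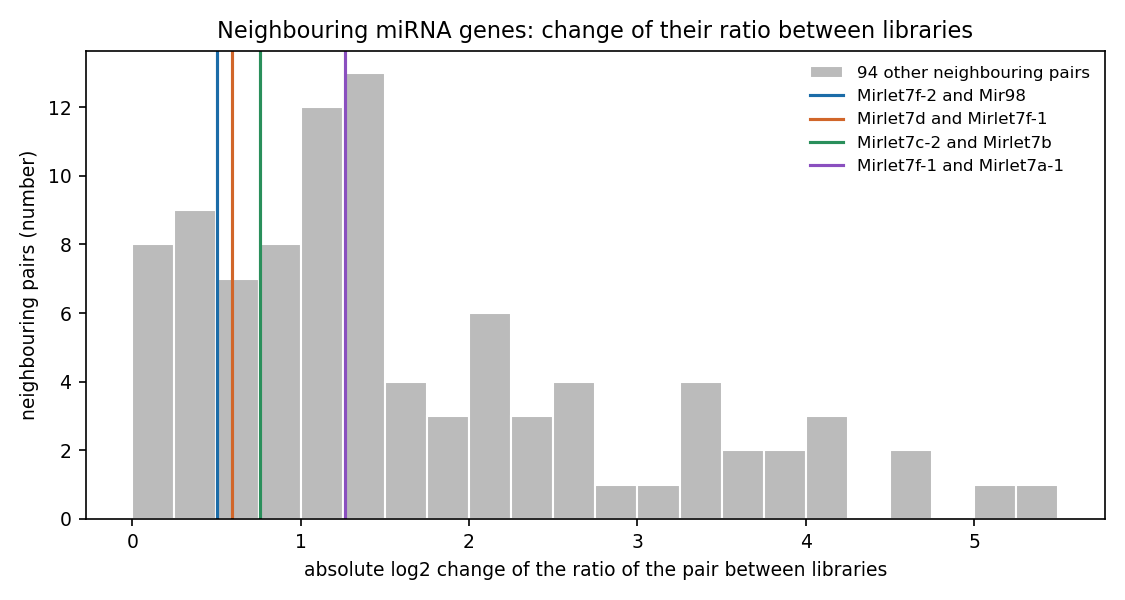
Histogram of the absolute log2 change, between the libraries, of the ratio of 2 neighbouring miRNA genes (94 pairs, grey bars, number of pairs), with the 4 neighbouring let-7 pairs as lines. The let-7 lines lie between 0.50 and 1.26, below the median of 1.29 of these 94 pairs.

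The hairpins were searched for GGAG, the motif beside the loop that LIN28 proteins bind, on the RNA strand only. It was present once in 6 members, each time between the mature arms, and absent from Mirlet7b, Mirlet7c-2 and Mir98. Of the 288 RefSeq hairpins of 83 to 108 bases, 44.8% held it anywhere. The Mirlet7g hairpin shows it, in capitals, and can be set beside those of Mirlet7b and Mirlet7c-2 above.

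Mirlet7g hairpin: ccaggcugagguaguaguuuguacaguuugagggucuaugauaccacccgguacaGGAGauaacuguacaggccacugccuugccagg

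The 3 members without these letters held 28.7% of the let-7 counts in the replicate 1 library and 8.94% in the other. They do not form a uniform group, since Mir98 took 1.57% and 2.72% of the let-7 counts while Mirlet7b took 26.2% and 6.10%. A match describes the sequence, and binding by LIN28 was not measured here.

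The 5 further let-7 genes and the 6 miR-99/100 and miR-125 genes that share clusters with 3 of them were set beside the members. Of these 11 genes 10 had at least 10 counts. All 10 had a lower share in the replicate 2 library, beside 70.6% of all tested genes, and 9 were at least 2-fold lower, beside 57.9%. With TMM 8 were lower and 2 higher, beside 52.9% of all tested genes lower, and 5 were at least 2-fold lower, beside 37.6%. The median log2 ratio was -2.27 by share and -0.87 with TMM. The other let-7 genes together held 2.01% and 0.354% of counts, of which Mirlet7e alone held 1.91% and 0.330%. Mirlet7e, clustered with Mir99b and Mir125a, had 57372 and 11817 counts (log2 -2.53, and -1.13 with TMM). Without strand Mirlet7e stood at 0 in both libraries. Mirlet7c-1, which makes the same let-7c-5p as Mirlet7c-2, had 2501 and 449 counts (log2 -2.73, and -1.33 with TMM).

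Mirlet7a-2, which makes the same let-7a-5p as Mirlet7a-1, had 412 and 344 counts, a log2 ratio of -0.51 by share and 0.89 with TMM. Mir7j, the gene of let-7j, had 115 and 68 counts, and Mir7k, that of let-7k, had 2 and 0. Among the cluster partners the log2 ratios by share ran from -3.58 for Mir125b-1 to -1.42 for Mir125a. Mirlet7b and Mirlet7c-2, at -3.26 and -4.02, lay near the lower end of that range or below it. The other 7 members ran from -1.72 to 0.14.

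**Figure D5:**
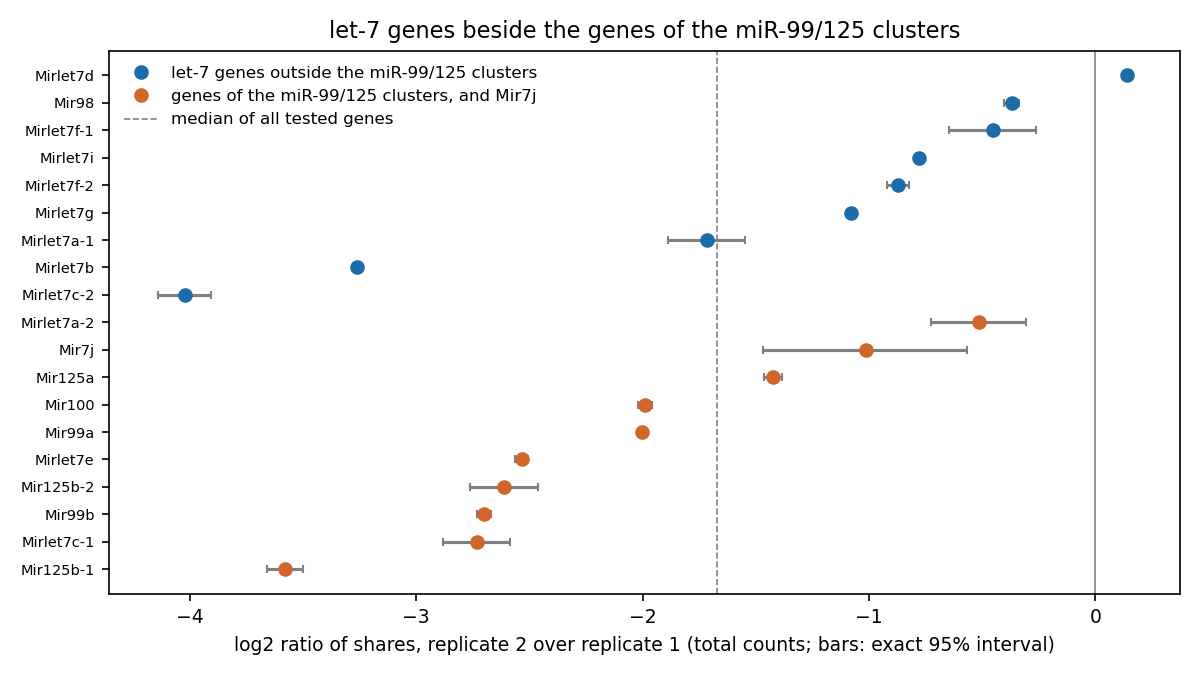
Log2 ratio of shares (replicate 2 over replicate 1, total counts) with exact 95% intervals for the 9 let-7 genes (blue) and for the genes of the miR-99 and miR-125 clusters and Mir7j (orange); the dashed line is the median of all tested genes, at -1.67. Of the blue points Mirlet7b, Mirlet7c-2 and Mirlet7a-1 lie to the left of the dashed line.

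The genes whose ratio was nearest to that of the summed members, among 91 genes outside the family and its clusters with at least 1000 counts in both libraries, were Mir191, Mir92-1 and Mir652. Their log2 ratios by share were -1.18, -1.22 and -1.27, beside -1.16 for the summed let-7 genes. With TMM they were 0.23, 0.19 and 0.13 beside 0.24, which is no second likeness, since TMM moves every gene by the same amount. In counts made without strand Mir191 stood at 0 in both libraries. Mir191 had 25291 and 13331 counts, Mir92-1 4477 and 2297, and Mir652 43816 and 21679. This likeness rests on a single ratio between 2 libraries.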

How the data were processed

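The deposited tables hold raw read counts per miRNA gene from 1 library each, per the file headers and labels on assembly mm10 with GENCODE M21. For the aligner and counter, the sources used here name none. Per the labels and values, the authors deposited 3 count columns in the layout of STAR gene counts, and the own-strand column was used. Reads given to no gene stayed out of the totals (70.1% and 47.4% of all reads in replicates 1 and 2). The members and lists were chosen with earlier results of these data known.

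Shares, ratios of shares with exact conditional binomial 95% intervals, and odds ratios of neighbouring genes with exact conditional intervals were computed over the whole table. No p-value is given, since each side of the comparison is 1 library. Genes with at least 10 counts summed (463) were tested against a 2-fold limit. Neighbouring pairs carry an offset of 0.5 counts. Named were all 9 members, the other let-7 genes and their cluster partners, and the 3 genes with the nearest ratio. Genes listed as let-7j and let-7k were found under the symbols Mir7j and Mir7k. Copies of mature sequences were counted among RefSeq hairpins (GRCm38.p6), because no genome sequence was used here. The GGAG search, the percentile of each member among tested genes and the pairs outside chromosome 12 were added after values were seen. Ratios and intervals were tested on counts simulated with counting error only, so that test does not cover amplified reads or spread between animals. Alternatives were unstranded counts, TMM, DESeq2 size factors, other denominators, filters and limits. An exact binomial test was also run, and its calls are given only among these alternatives, because they reflect counting error only. Shares and ratios were computed in Python 3.11.15 (scipy 1.17.1, pandas 2.3.3), scaling and odds ratios in R 4.3.3 with edgeR 4.0.16 and DESeq2 1.42.0.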

Additional observations from a re-analysis of the deposited data

Results flagged for a closer look

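The opposite-strand column was not used in the comparisons. At Gm24111, the annotated miRNA gene on the other strand of Mirlet7f-1 (chromosome 13, 48537825 to 48537921), there were 490 such reads in replicate 1 and 427 in replicate 2, beyond the limit of 3 counts set by a count of 0. These equal the own-strand counts of Mirlet7f-1, so they repeat counts already used there and are no separate signal, and Gm24111 itself had 0 own-strand counts in both libraries. At the 9 members the opposite-strand column held at most 3 counts.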

How the results depend on the processing

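The mean share of the 9 members was 23.9% of gene counts and 8.81% of all reads of the tables, and with a library left out it ranged from 14.8% to 33.0%. The log2 ratio of the summed share, -1.16 with total counts, was 0.24 with TMM, 0.39 with DESeq2 size factors, -1.06 with unstranded counts, -0.91 without Mir206 in the total and -0.34 over all reads. The sign also turned with TMM and with DESeq2 size factors for Mirlet7f-1 (0.95 and 1.10), Mirlet7f-2 (0.53 and 0.68), Mir98 (1.03 and 1.18), Mirlet7g (0.33 and 0.47) and Mirlet7i (0.63 and 0.77). Over all reads it turned for Mirlet7f-1 (0.36), Mir98 (0.45) and Mirlet7i (0.037). By construction a scaling moves all members by the same amount.

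Of the members, 4 were called lower and 0 higher. The numbers were 2 and 2 with TMM, 2 and 3 with DESeq2 size factors, 2 and 0 over all reads or with a 4-fold limit, 3 and 0 with unstranded counts or without Mir206 in the total, and 8 and 1 by the exact binomial test. Of the 463 tested genes 268 were called lower and 100 higher (57.9% and 21.6%). With TMM the counts were 174 and 160 (37.6% and 34.6%), and with DESeq2 size factors 166 and 171. They were 223 and 124 over all reads, 207 and 69 with a 4-fold limit, and 253 and 110 without Mir206 in the total. With unstranded counts they were 253 and 93, where genes without such counts dropped out. The exact binomial test called 295 of all tested genes lower and 122 higher. That test covers counting error only and called most tested genes, so its calls of members are not read as particular to let-7. Other filters test other numbers of genes, with 4 and 0 members called under each. All genes called were then 446 and 169 with at least 1 count, and 144 and 82 with at least 100 counts. The numbers of genes tested under these filters are not given here, so the members called have no background share beside them. The share of higher among called genes thus moves with the scaling. Without strand Mirlet7f-1 had no counts, so its ratios could not be computed; the 3 other ratios within a locus moved by less than their intervals. No paired analysis was possible because there is 1 group. Depth limits Mirlet7a-1 and Mirlet7f-1 most, and shared mature sequences limit these, Mirlet7c-2 and Mirlet7f-2 beyond what depth shows.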
